A study of Mus musculus with 6 samples.

Results

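The genes described here are 10 transcripts that mark the touch and proprioceptive neurons of the dorsal root ganglion in the mouse: Pvalb, Runx3, Etv1, Spp1, Cntnap2, Slc17a7, Calb1, Calb2, Th and Slc17a8. They were chosen by symbol, as 10 of the 38926 gene symbols in the deposited count tables, and all 10 were among the 16706 genes with enough reads to be tested. The vincristine group held 3 samples and the vehicle group 3 samples of ganglia from lumbar levels 3, 4 and 5, taken on the side of the injected paw. Both groups were female wild-type C57BL/6 mice of 8 to 10 weeks, with 4 animals pooled per sample, and total RNA was sequenced. Vincristine, a chemotherapy drug that binds tubulin and can cause peripheral neuropathy, was given into the paw to a cumulative dose of 40 µg according to the labels, and control mice received vehicle. The comparison addresses how the ganglion's transcripts differ after local exposure to the drug.

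Low-threshold mechanoreceptors carry light touch from the skin, and proprioceptors report muscle length and tension. Both include large myelinated neurons, which use glutamate as transmitter, while the unmyelinated C-fibre low-threshold mechanoreceptors (C-LTMRs) of hairy skin respond to slow stroking. Runx3 and Etv1 direct the development of proprioceptors, Pvalb and Spp1 are kept by many of the mature large neurons, and Th with Slc17a8 marks C-LTMRs. Whole ganglia were sequenced, so fewer cells of a type and less RNA per cell cannot be told apart in any value below.

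Libraries held 12374331 to 26346304 reads in genes in the vincristine group and 17967934 to 19917055 in the vehicle group. Vincristine replicate 1 was the shallowest and stood apart on the first principal component, which held 56.4% of the variance. In that library 24.8% of the tallied alignments lay outside annotated genes, against 14.8% to 17.0% in the other libraries. Defining markers of sensory neurons were read in every library: the transcription factor Isl1 had 20.9 to 53.5 CPM (reads of a gene scaled by the library total) in vincristine ganglia and 53.8 to 64.4 CPM in vehicle ganglia. The actin regulator Avil had 174 to 594 CPM in vincristine ganglia and 387 to 561 CPM in vehicle ganglia. The nerve injury factor Atf3 had 129, 196 and 289 CPM in vincristine ganglia, against 7.95, 7.56 and 6.05 CPM in vehicle ganglia, and rose by 4.83 ± 0.33 on the log2 scale (SE; edgeR quasi-likelihood test, adjusted p = 0.00732). With any 1 vehicle library left out, its log2 fold change was 4.72 to 4.91 and its edgeR adjusted p 0.0676 to 0.107.

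None of the 10 touch and proprioceptive markers passed the test between vincristine and vehicle. At an adjusted p under 0.05 edgeR called 0 of 10, against a background of 60 of 16706 genes, or 0.359%, of which 0.293% of genes were higher and 0.0658% lower with vincristine. At an unadjusted p under 0.05 it found 0 of 10, against 11.4% of all genes, and DESeq2 called 0 of 10, against 2.81% of the genes it gave an adjusted p. The vincristine and vehicle libraries overlapped for each of the 10, whereas they did not overlap for 21.0% of all genes. Log2 fold changes were below 0 for 7 of the 10, against 50.7% of all genes, with a median of -0.18 over the 10 and -0.0033 over all genes. Without vincristine replicate 1 the median over the 10 was 0.02, and edgeR called 346 genes and 0 of the 10. With any 1 vehicle library left out it called 0 genes, with 1063 to 1462 at an unadjusted p under 0.05, and it called 6 without vincristine replicate 2 and 18 without vincristine replicate 3.

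**Figure D1:**
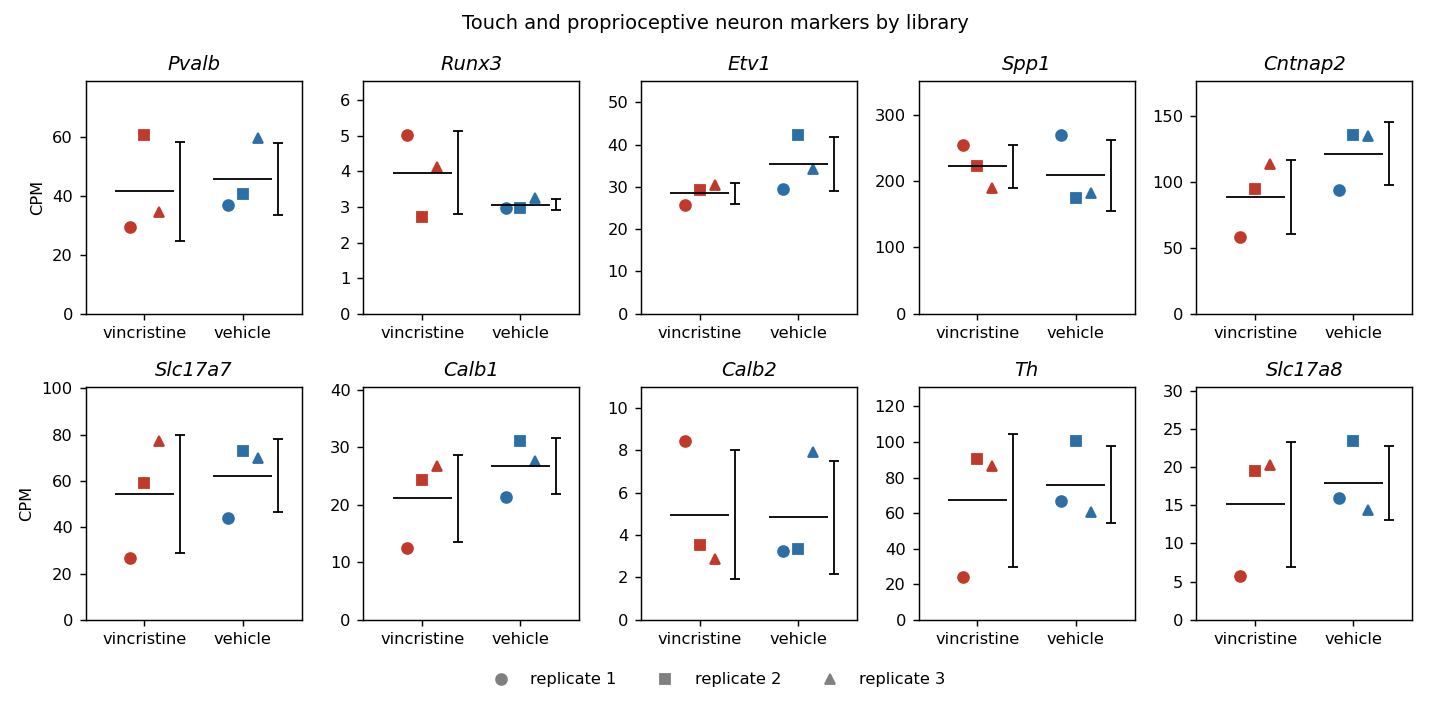
CPM of each of the 10 genes (linear axes from 0, 1 panel per gene) in 3 vincristine (red) and 3 vehicle (blue) libraries, with the marker shape giving the replicate number, horizontal lines the group means and bars 1 SD. The groups overlap in every panel, and vincristine replicate 1 is the lowest library for Pvalb, Etv1, Cntnap2, Slc17a7, Calb1, Th and Slc17a8 and the highest for Runx3 and Calb2.

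Runx3 and Etv1 are the transcription factors of the set. Runx3, a Runt-domain factor that keeps developing proprioceptors on their path, was the scarcest of the 10, with 65, 52 and 107 reads in vincristine ganglia and 53, 57 and 65 in vehicle ganglia. Its levels were 5.03, 2.71 and 4.12 CPM with vincristine and 2.97, 2.97 and 3.25 CPM with vehicle. The vehicle libraries lay close together and the vincristine libraries spread to both sides of them. The log2 fold change was 0.36 ± 0.26 (SE, 95% interval -0.24 to 0.96, edgeR adjusted p = 0.641). Leaving out vincristine replicate 1 gave 0.17, leaving out vincristine replicate 2 gave 0.58, and sample quality weights gave 0.049.

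Etv1, an ETS factor needed for proprioceptor afferents to reach the ventral spinal cord, had 25.8, 29.2 and 30.4 CPM in vincristine ganglia and 29.6, 42.4 and 34.3 CPM in vehicle ganglia. Vehicle replicate 1 lay within the vincristine range, and the other vehicle libraries lay above it. Means were 28.5 ± 2.41 CPM with vincristine and 35.4 ± 6.46 CPM with vehicle (SD, n = 3 each). The log2 fold change of -0.31 ± 0.15 had a 95% interval of -0.67 to 0.04, the narrowest of the 10, and did not pass (edgeR adjusted p = 0.499). It was -0.15 without vehicle replicate 2 and -0.43 without vehicle replicate 1.

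Of 5 related factors tested beside them, the Runt partner included, edgeR called 0, against 0.359% of all genes. The groups did not overlap for 1 of the 5, against 21.0% of all genes. The shared Runt-domain partner Cbfb had the smallest p, with 139, 181 and 183 CPM in vincristine ganglia and 211, 227 and 212 CPM in vehicle ganglia, groups that did not overlap (log2 fold change -0.37 ± 0.15, edgeR adjusted p = 0.398). Runx2, a bone factor, had 17.3, 12.2 and 10.6 CPM with vincristine and 10.8, 8.75 and 8.20 CPM with vehicle (0.53 ± 0.21, edgeR adjusted p = 0.416, and 0.30 without vincristine replicate 1).

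T and natural killer cells also use Runx3. Their 18 marker genes summed to 42.5, 14.1 and 22.3 CPM in vincristine ganglia and 23.7, 15.4 and 15.2 CPM in vehicle ganglia, with 0 of 18 at 0 reads in every library. The order of the vincristine libraries was that of Runx3 itself, and the order of the vehicle libraries was not. The same held for the sums of macrophage, neutrophil and erythroid genes, given below. The part of any of these cells in the level of Runx3 was not tested.

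Pvalb encodes parvalbumin, a calcium buffer of fast-firing neurons and of fast muscle fibres. It had 29.4, 60.7 and 34.5 CPM in vincristine ganglia, against 37.0, 40.5 and 59.5 CPM in vehicle ganglia. Each group held a library near 60 CPM and others well below it, and the ranges overlapped over most of their width. The log2 fold change was -0.14 ± 0.30 (SE, 95% interval -0.85 to 0.58, edgeR adjusted p = 0.892), and it was 0.05 without vincristine replicate 1 and 0.10 without vehicle replicate 3.

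Skeletal muscle markers, 18 genes that include actin Acta1 and titin Ttn, summed to 690.2, 2908 and 838 CPM in vincristine ganglia and 279, 380.2 and 1255 CPM in vehicle ganglia. Within each group Pvalb had the same order over the 3 libraries as this sum, with vincristine replicate 2 and vehicle replicate 3 at the top. In every library 0 of the 18 muscle genes were at 0 reads. Muscle RNA as a part of the Pvalb level was not tested.

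Spp1 encodes osteopontin, a secreted phosphoprotein of large sensory neurons that bone cells, macrophages and glia also make. Its level was 254, 223 and 189.7 CPM in vincristine ganglia and 269.8, 174 and 181 CPM in vehicle ganglia. Vehicle replicate 1 was the highest of the 6 libraries and the other vehicle libraries were the lowest. The log2 fold change was 0.09 ± 0.21 (SE, 95% interval -0.40 to 0.58, edgeR adjusted p = 0.894). It was close to 0 without vincristine replicate 1 (-0.014), vehicle replicate 2 (-0.0044) or vehicle replicate 3 (-0.00020).

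Markers of other Spp1-expressing cells moved in different ways. Schwann cell and myelin genes (14) summed to 16656, 16488 and 11816 CPM with vincristine and 18456, 13229.6 and 12890.1 CPM with vehicle, highest like Spp1 in vehicle replicate 1. Macrophage genes (18) summed to 2428, 1280.1 and 1378 CPM with vincristine and 988, 758 and 850.0 CPM with vehicle, without overlap. Bone and osteoclast genes (16) summed to 2302, 1631 and 946 CPM with vincristine and 1455, 960.2 and 2958 CPM with vehicle. At most 1 gene of these lists was at 0 reads in a library, and the part of these cells in the level of Spp1 was not tested. An overlapping transcript on the same strand, Gm42793, shares 309 of the 1648 exon bases of Spp1, or 18.8%, so part of its reads may have been set aside as ambiguous.

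Receptors and relatives of osteopontin, 12 tested, gave 11 positive and 1 negative log2 fold change, against 8241 of 16706 genes positive. EdgeR called 0 of the 12, against 0.359% of all genes, and their median was 0.27. The groups did not overlap for 2 of the 12, against 21.0% of all genes. The integrin subunit Itgb3 had 101, 48.6 and 68.1 CPM in vincristine ganglia and 41.9, 27.3 and 54.0 CPM in vehicle ganglia (0.82 ± 0.32, edgeR adjusted p = 0.404). Its partner Itgav had 192, 157 and 153 CPM with vincristine and 144, 136 and 126 CPM with vehicle, groups that did not overlap (0.31 ± 0.13, edgeR adjusted p = 0.445). Without vincristine replicate 1 the log2 fold changes were 0.51 for Itgb3 and 0.20 for Itgav. CD44, the other classic osteopontin receptor, had 202, 266 and 347 CPM with vincristine and 234, 297 and 247 CPM with vehicle. Several of these integrins are also found on blood cells. Neutrophil genes (16) summed to 7999, 2607 and 2996 CPM with vincristine and 1449.5, 838 and 1050.0 CPM with vehicle, and erythroid genes (12) to 5489, 2583 and 2930.1 CPM with vincristine and 1707, 1519 and 1448 CPM with vehicle. Both sums were highest in vincristine replicate 1, and their part in the receptor levels was not tested.

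**Figure D2:**
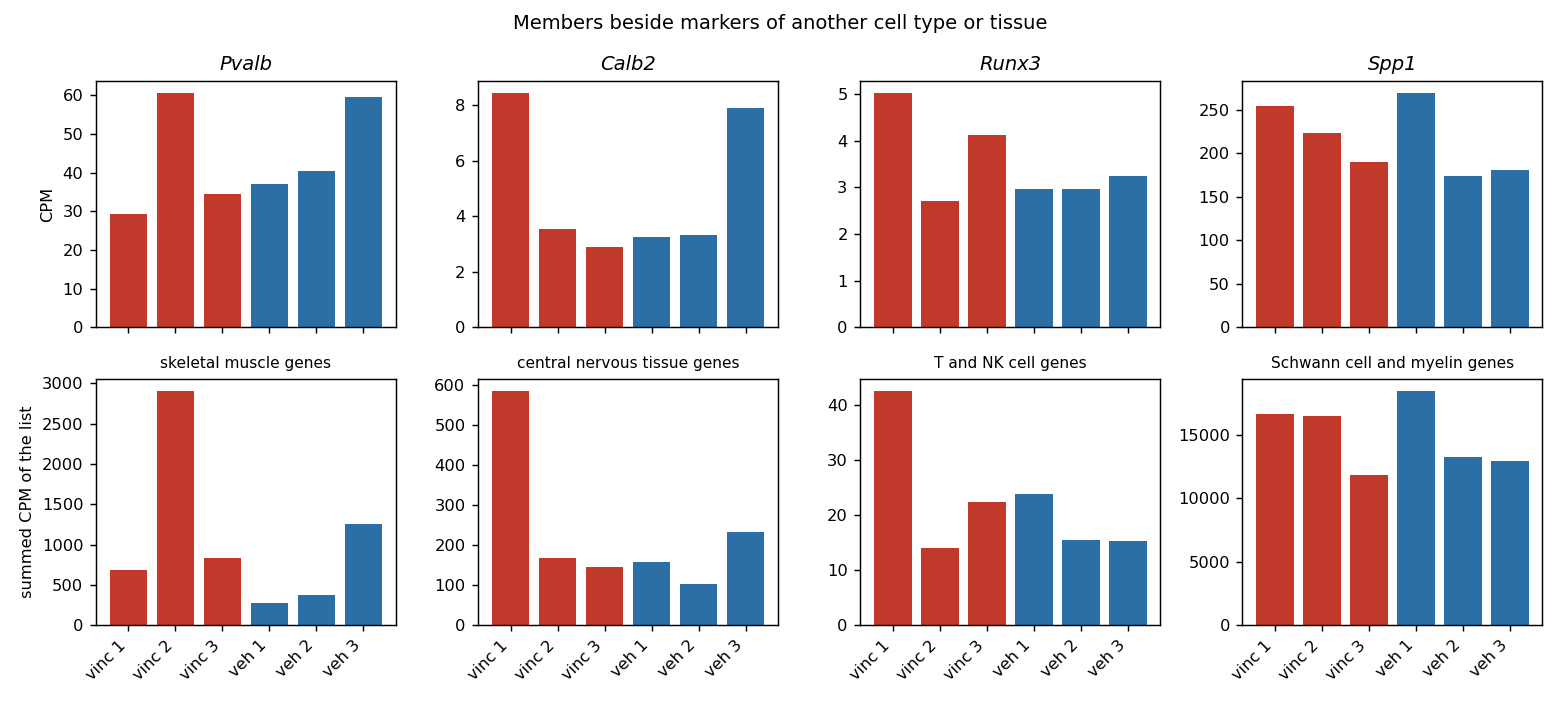
CPM of Pvalb, Calb2, Runx3 and Spp1 (upper row) above the summed CPM of skeletal muscle, central nervous tissue, T and natural killer cell, and Schwann cell genes (lower row), for 3 vincristine (red, vinc) and 3 vehicle (blue, veh) libraries on linear axes from 0. Pvalb and the muscle sum peak in vincristine replicate 2 and vehicle replicate 3, and Calb2 and the central nervous tissue sum peak in vincristine replicate 1 and vehicle replicate 3.

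Cntnap2 encodes Caspr2, the adhesion protein that holds potassium channels at the juxtaparanode beside each node of Ranvier. It had 58.5, 95.0 and 114 CPM in vincristine ganglia, against 93.8, 136 and 135 CPM in vehicle ganglia. Vincristine replicate 1 was the lowest library by a wide margin, and vehicle replicate 1 fell just below vincristine replicate 2. Means were 89.1 ± 28.1 CPM with vincristine and 122 ± 24.2 CPM with vehicle (SD, n = 3 each). The log2 fold change of -0.45 ± 0.26 was the farthest from 0 of the 10 (95% interval -1.07 to 0.17, edgeR adjusted p = 0.573), and it was -0.22 without vincristine replicate 1.

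Other nodal and juxtaparanodal genes showed the same sign in most cases. Of 18 tested beside Cntnap2, 17 had a negative log2 fold change, against 50.7% of all genes, with a median of -0.38. EdgeR called 0 of the 18, against 0.359% of all genes. With Cntnap2 included, their median log2 CPM minus the vehicle mean was -0.91, -0.23 and -0.07 in vincristine libraries and -0.32, 0.16 and 0.16 in vehicle libraries, so vincristine replicate 1 stood lowest. Pan-neuronal genes (14 of 19 negative, median -0.32) and nociceptor genes (13 of 18 negative, median -0.48) had medians of the same sign, and the part of the neuronal share of RNA was not tested. Lgi3, a secreted partner of axonal adhesion complexes, had 30.5, 41.1 and 44.5 CPM in vincristine ganglia and 45.2, 67.6 and 79.1 CPM in vehicle ganglia, groups that just failed to overlap (-0.72 ± 0.23, edgeR adjusted p = 0.314, and 0.0394 with the replicate block). The channel subunit Kcnab1 had 48.9, 104 and 116 CPM with vincristine and 128, 164 and 129 CPM with vehicle, also without overlap (-0.64 ± 0.31, edgeR adjusted p = 0.492, and -0.35 without vincristine replicate 1). Lgi3 and Kcnab1 were the only 2 of the 18 genes whose groups did not overlap, against 21.0% of all genes. The potassium channel Kcna1 itself had 386, 532 and 559.6 CPM with vincristine and 428, 522 and 496 CPM with vehicle.

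Slc17a7 encodes VGLUT1, which loads glutamate into synaptic vesicles of large myelinated afferents. Its level was 26.9, 58.9 and 77.3 CPM in vincristine ganglia and 44.1, 73.0 and 69.7 CPM in vehicle ganglia. The vincristine libraries held both the lowest and the highest value. The log2 fold change was -0.19 ± 0.37 (SE, 95% interval -1.07 to 0.69, edgeR adjusted p = 0.879), and 0.13 without vincristine replicate 1.

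Calb1 and Calb2 encode the calcium buffers calbindin and calretinin, each found in subsets of large sensory neurons. Calb1 had 12.5, 24.3 and 26.7 CPM in vincristine ganglia, against 21.4, 31.1 and 27.7 CPM in vehicle ganglia. Vincristine replicate 1 lay below the vehicle range and the other vincristine libraries inside it (log2 fold change -0.33 ± 0.28, 95% interval -0.99 to 0.34, edgeR adjusted p = 0.696, and -0.07 without vincristine replicate 1).

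Calb2 had 8.44, 3.55 and 2.89 CPM in vincristine ganglia and 3.25, 3.33 and 7.90 CPM in vehicle ganglia, from 58 to 158 reads per library. A single library of each group stood well above its fellows. The fitted log2 fold change was 0.00 ± 0.54, with the widest 95% interval of the 10, -1.26 to 1.26 (edgeR adjusted p = 0.9998). Its sign hung on single libraries: it was -0.60 without vincristine replicate 1, -0.21 without vehicle replicate 1, -0.19 without vehicle replicate 2 and 0.56 without vehicle replicate 3.

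The libraries with high Calb2 were also high in genes of the brain and spinal cord. The 14 central nervous tissue markers, which include the astrocyte glutamate transporter Slc1a2, summed to 585, 167 and 146 CPM in vincristine ganglia and 158, 102 and 231 CPM in vehicle ganglia. At most 1 of these 14 genes was at 0 reads in a library. Bone and osteoclast genes, given above, were likewise highest in vincristine replicate 1 and vehicle replicate 3, and the part of any of these tissues in the level of Calb2 was not tested.

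In the family of calcium-binding proteins, 24 further genes were tested, with a median log2 fold change of -0.18. EdgeR called 1 of the 24 higher and 0 lower, against 0.293% of all genes higher and 0.0658% lower. S100a11, a small calcium sensor of many cell types, rose with vincristine, at 29.3, 23.4 and 26.8 CPM in vincristine ganglia and 14.8, 11.3 and 11.4 CPM in vehicle ganglia (1.08 ± 0.15, edgeR adjusted p = 0.0498). With 1 library left out its edgeR adjusted p was 0.0177 to 0.303, and it passed without vincristine replicate 1 alone. The call was also lost with limma-voom, with other scaling factors, with a stricter filter and with thinned counts, at adjusted p-values of 0.0554 to 0.0759. It held with DESeq2 (adjusted p = 3.3e-06) and with sample quality weights (0.00628). The edgeR call also held without a filter (adjusted p = 0.0186), with the replicate block (0.0202) and without the robust option (0.0472). Calml4, a calmodulin-like protein, just missed the threshold, at 4.49, 5.38 and 5.47 CPM with vincristine and 9.80, 12.6 and 10.9 CPM with vehicle (-1.11 ± 0.16, edgeR adjusted p = 0.0552), and passed without vincristine replicate 1 (-1.03, edgeR adjusted p = 0.0210). It also passed with the replicate block (adjusted p = 0.0302), without a filter (0.0330), with sample quality weights (0.00706) and with DESeq2 (1.7e-05). Both genes, picked for the smallest p-values of the family, separated the groups fully. Of the 24 further genes 10 did so, against 21.0% of all genes, and Pvalb, Calb1 and Calb2 did not. Of 8 other genes of transmitter loading, the 3 vesicle glycoproteins Sv2a, Sv2b and Sv2c among them, edgeR called 0, against 0.359% of all genes. Slc17a6, which encodes the widely used VGLUT2, had 108, 225 and 263 CPM in vincristine ganglia and 173, 236 and 201 CPM in vehicle ganglia.

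Th and Slc17a8 mark C-LTMRs: Th is tyrosine hydroxylase, the rate-limiting enzyme of catecholamine synthesis, and Slc17a8 is the glutamate transporter VGLUT3. Because their levels moved together over the libraries, the 300 bases around the start of each gene are shown from RefSeq on GRCm38.p6, 250 before the start site and 50 after it, read 5′ to 3′ on the gene's strand. Th lies at chr7:142899946-142900245 on the minus strand and Slc17a8 at chr10:89621200-89621499 on the minus strand. GENCODE M21, used for the gene positions given last, extends Th upstream to base 142931128, beyond this RefSeq start. Capitals mark the cyclic AMP response element TGACGTCA.

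Th: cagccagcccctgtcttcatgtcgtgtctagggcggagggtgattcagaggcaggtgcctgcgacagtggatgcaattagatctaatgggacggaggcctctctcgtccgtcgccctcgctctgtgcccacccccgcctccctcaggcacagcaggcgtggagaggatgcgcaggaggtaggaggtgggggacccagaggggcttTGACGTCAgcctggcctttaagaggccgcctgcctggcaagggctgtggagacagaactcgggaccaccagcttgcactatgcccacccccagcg

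Slc17a8: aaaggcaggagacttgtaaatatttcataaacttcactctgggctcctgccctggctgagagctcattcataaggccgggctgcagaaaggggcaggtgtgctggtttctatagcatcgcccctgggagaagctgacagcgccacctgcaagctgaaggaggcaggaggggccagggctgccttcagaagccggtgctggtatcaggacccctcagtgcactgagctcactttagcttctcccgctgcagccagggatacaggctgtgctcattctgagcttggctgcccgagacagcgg

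The Th window holds this element once, 45 bases before the start, and the Slc17a8 window does not hold it. Searched on both strands, it occurs in 1.79% of 32851 such windows of mouse genes. Neither window holds the Runt-factor core TGTGGT (16.8% of windows), the ETS core GGAAGT (23.8%) or the TATA box letters TATAAA (13.6%). Of the 8 genes of the set with a window in the table, those holding TGTGGT were Runx3, Etv1 and Spp1, and those holding GGAAGT were Etv1 and Spp1. These letter matches describe the sequence and were not tested as binding sites.

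Th had 24.2, 90.5 and 86.6 CPM in vincristine ganglia, against 67.0, 101 and 60.6 CPM in vehicle ganglia. Slc17a8 had 5.73, 19.5 and 20.2 CPM in vincristine ganglia, against 15.9, 23.4 and 14.3 CPM in vehicle ganglia. Vincristine replicate 1 was far below every other library for both genes, and the other vincristine libraries lay inside the vehicle range. Log2 fold changes were -0.18 ± 0.46 for Th (95% interval -1.26 to 0.91, edgeR adjusted p = 0.913) and -0.22 ± 0.44 for Slc17a8 (-1.25 to 0.81, edgeR adjusted p = 0.879). Without vincristine replicate 1 they were 0.22 and 0.15, and without vehicle replicate 2 they were 0.09 and 0.03.

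The ratio of Th to Slc17a8 reads was nearly the same in the 6 libraries. It was 4.23 (95% counting interval 3.27 to 5.53), 4.63 (4.14 to 5.20) and 4.28 (3.89 to 4.72) in vincristine ganglia. In vehicle ganglia it was 4.21 (3.70 to 4.81), 4.29 (3.87 to 4.77) and 4.22 (3.71 to 4.82). The mean ratio of 4.31 lay inside each interval, which is exact and covers counting error only. The SD of the log2 ratio over the 6 libraries was 0.052, the smallest of the 45 pairs among the 10 genes, whose median SD was 0.61 and whose largest was 1.37. Next came Calb1 with Cntnap2 (SD 0.11), Calb1 with Slc17a7 (0.18) and Cntnap2 with Slc17a7 (0.22). These ratios are a description, given without a test, and the pair was picked after its values were seen.

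**Figure D3:**
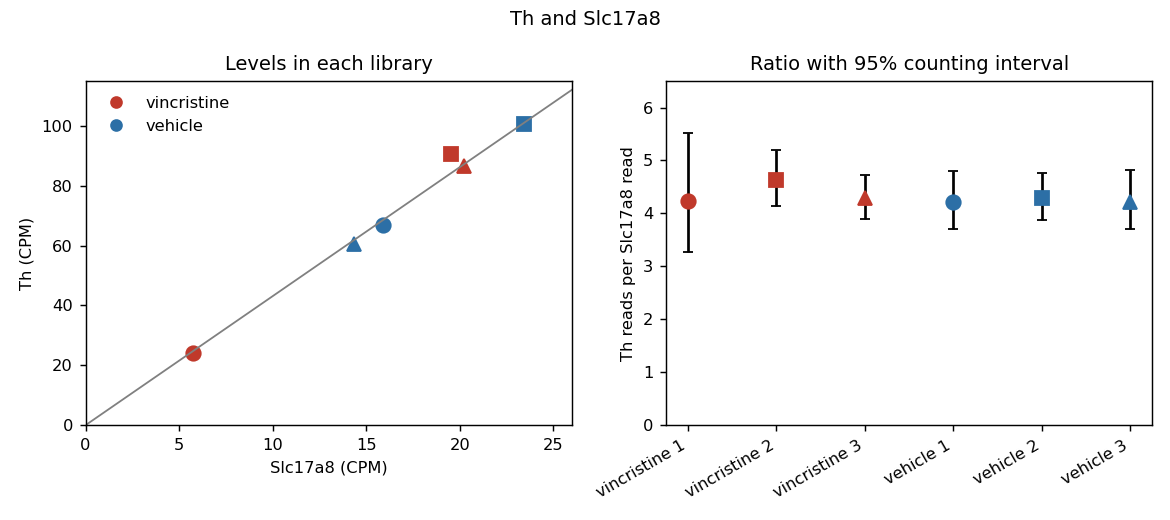
Left, Th against Slc17a8 in CPM in each library, with a line through 0 at the mean ratio of 4.31; right, Th reads per Slc17a8 read with 95% counting intervals, for vincristine (red) and vehicle (blue), marker shape giving the replicate. The levels of both genes span more than 3-fold while the ratio stays between 4.21 and 4.63.

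Other genes of C-LTMRs, 9 tested, gave 0 calls by edgeR, against 0.359% of all genes, and a median log2 fold change of -0.21. Of the 9, 2 had a positive and 7 a negative log2 fold change, against 50.7% of all genes below 0. The secreted C-LTMR protein Fam19a4 had 20.4, 51.9 and 53.9 CPM in vincristine ganglia and 49.0, 57.4 and 40.7 CPM in vehicle ganglia. The neurturin receptor Gfra2 had 31.4, 97.4 and 92.4 CPM with vincristine and 95.3, 133 and 118 CPM with vehicle (-0.64 ± 0.39, edgeR adjusted p = 0.590). P2ry1, a nucleotide receptor, had 45.9, 77.5 and 82.1 CPM with vincristine and 79.8, 109.9 and 85.0 CPM with vehicle (-0.42 ± 0.24, edgeR adjusted p = 0.564). For these 3 genes too, vincristine replicate 1 was the lowest library, and without it the log2 fold change was -0.28 for Gfra2 and -0.20 for P2ry1.

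Sympathetic neurons also make Th, and their marker Dbh was nearly absent. Over the 3 libraries of each group, Dbh, which makes noradrenaline, had 2, 0 and 7 reads in vincristine ganglia and 0, 1 and 1 in vehicle ganglia. Th itself had 313, 1733 and 2248 reads in vincristine ganglia and 1196, 1931 and 1212 in vehicle ganglia. Of 12 tested genes of catecholamine and sympathetic biology edgeR called 0, against 0.359% of all genes. The groups did not overlap for 2 of the 12, against 21.0% of all genes. Gch1, which makes the cofactor of tyrosine hydroxylase, had 26.2, 14.6 and 15.4 CPM in vincristine ganglia and 7.84, 6.77 and 8.35 CPM in vehicle ganglia, without overlap, and did not pass (1.28 ± 0.25, edgeR adjusted p = 0.125). Without vincristine replicate 1 it passed (0.97, edgeR adjusted p = 0.0149), as it did with the replicate block (adjusted p = 0.0419), with sample quality weights (0.0114) and with DESeq2 (0.000533).

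Of 34 other genes of myelinated touch and proprioceptive neurons tested, 8 had a positive and 26 a negative log2 fold change. Over all genes 50.7% were below 0. EdgeR called 0 of the 34, against 0.359% of all genes, and their median was -0.21. The groups did not overlap for 2 of the 34, against 21.0% of all genes. The neurofilament Nefl, abundant in large axons, had 895, 1947 and 2258 CPM in vincristine ganglia and 2408, 3152 and 3250.2 CPM in vehicle ganglia, groups that did not overlap (-0.79 ± 0.36, edgeR adjusted p = 0.466, and -0.48 without vincristine replicate 1). The sodium channel Scn1a had 66.8, 87.7 and 101 CPM with vincristine and 93.5, 138 and 156 CPM with vehicle (-0.60 ± 0.23, edgeR adjusted p = 0.383). The neurotrophin receptor of proprioceptors, Ntrk3, had 46.4, 57.2 and 59.1 CPM with vincristine and 48.0, 78.1 and 66.9 CPM with vehicle (-0.24 ± 0.19, edgeR adjusted p = 0.671, and -0.07 without vehicle replicate 2).

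The 10 genes were then set against the neuronal transcripts of the same library. For 19 pan-neuronal genes, the median log2 CPM minus the vehicle mean was -1.05, -0.07 and 0.12 in vincristine libraries and -0.27, 0.17 and 0.08 in vehicle libraries. For the 10 genes it was -0.82, -0.08 and -0.03 in vincristine libraries and -0.26, 0.21 and 0.08 in vehicle libraries. Nociceptor genes (18) stood at -1.48, -0.25 and -0.15 with vincristine and -0.14, 0.19 and -0.04 with vehicle. In vincristine replicate 1 all 3 lists were thus at their lowest, whereas satellite glia genes (14) were at 0.11 there.

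**Figure D4:**
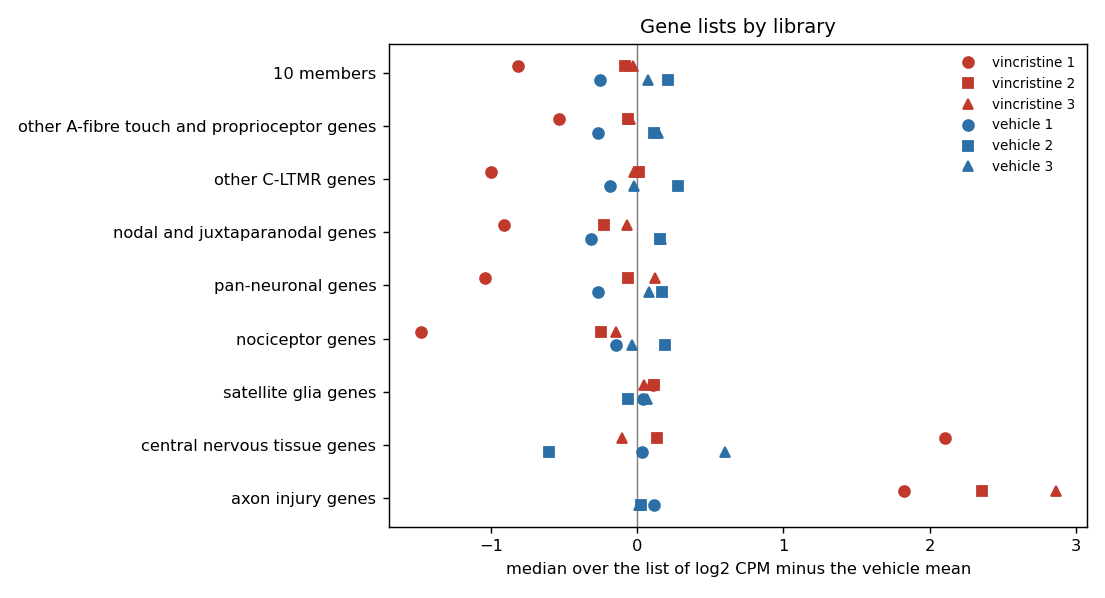
Median over each gene list of log2 CPM minus the vehicle mean (horizontal axis, log2 units) in 3 vincristine (red) and 3 vehicle (blue) libraries. Vincristine replicate 1 is the lowest library for the 10 members and for the other touch, C-LTMR, juxtaparanodal, pan-neuronal and nociceptor lists, and the axon injury genes separate the groups.

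Relative to the median of the pan-neuronal genes, Cntnap2 stood at -1.45, -1.08 and -1.01 on the log2 scale in vincristine ganglia and -1.02, -0.91 and -0.95 in vehicle ganglia. Vincristine replicate 3 lay just above vehicle replicate 1, so the groups overlapped narrowly (difference -0.22, exact two-sided permutation test p = 0.2, smallest possible 0.1). Etv1 stood at -2.63, -2.78 and -2.91 with vincristine and -2.68, -2.59 and -2.93 with vehicle, a difference of -0.04 (exact permutation p = 0.8). The Etv1 difference relative to neuronal genes was smaller than its log2 fold change of -0.31.

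Spp1 stood at 0.67, 0.15 and -0.28 relative to pan-neuronal genes in vincristine ganglia and 0.50, -0.55 and -0.53 in vehicle ganglia (difference 0.37, exact permutation p = 0.5). Runx3 stood at -4.96, -6.16 and -5.77 with vincristine and -5.95, -6.38 and -6.29 with vehicle (difference 0.58, exact permutation p = 0.2). For both genes the ranges of the groups overlapped. Over the other 6 genes the differences ran between -0.15 for Slc17a8 and 0.27 for Calb2, with exact permutation p-values of 0.8 to 1. With 3 samples a group no such test can go below 0.1.

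**Figure D5:**
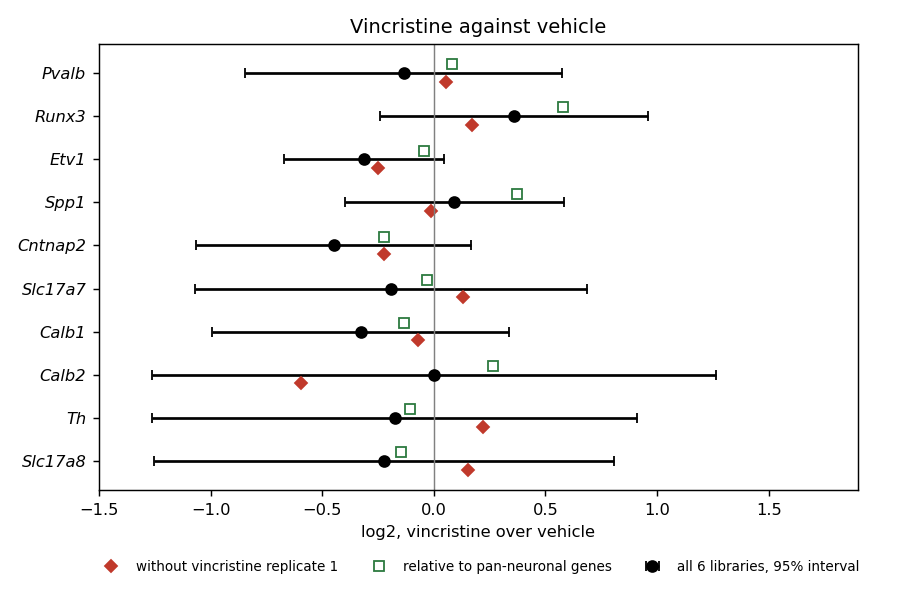
Log2 of vincristine over vehicle for each gene: black, the edgeR fit on all 6 libraries with its 95% interval; red diamonds, the fit without vincristine replicate 1; open green squares, the difference relative to pan-neuronal genes. Every interval spans 0. Without that library Pvalb, Runx3, Slc17a7, Th and Slc17a8 lie above 0, Runx3 also in the fit on all 6 libraries.

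How far replicates of 1 group lay apart differed between the 10 genes. Among vincristine libraries the highest over the lowest CPM was 3.73 for Th, 3.53 for Slc17a8, 2.92 for Calb2 and 2.88 for Slc17a7, but 1.34 for Spp1 and 1.18 for Etv1. Among vehicle libraries Calb2 again spread widely, at 2.43, while the other genes ran from 1.09 for Runx3 to 1.66 for Th. The precision of each comparison followed this spread, with a standard error of 0.15 for Etv1 and of 0.54 for Calb2 on the log2 scale.

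Levels of different genes were compared per kilobase of exon. Spp1 led with 135 ± 19.6 CPM per kb in vincristine ganglia and 126 ± 32.3 in vehicle ganglia (SD, n = 3 each). In CPM per kb, Pvalb followed at 39.9 with vincristine and 43.9 with vehicle, Th at 28.4 with vincristine and 32.2 with vehicle, Cntnap2 at 8.69 with vincristine and 11.9 with vehicle, and Slc17a7 at 10.1 with vincristine and 11.6 with vehicle. The lower levels per kb were 4.37 with vincristine and 5.52 with vehicle for Calb1, and 3.21 with vincristine and 3.79 with vehicle for Slc17a8. Calb2 had 2.85 with vincristine and 2.77 with vehicle, Etv1 2.14 with vincristine and 2.66 with vehicle, and Runx3 0.791 with vincristine and 0.612 with vehicle. In vehicle ganglia neighbours, ordered by their vehicle means, did not overlap between Spp1 and Pvalb, Th and Cntnap2, Slc17a7 and Calb1, and Etv1 and Runx3. The other neighbours overlapped in vehicle ganglia, and in vincristine ganglia the separated neighbours were Spp1 over Pvalb and Etv1 over Runx3.

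The 10 genes lie at these places on GRCm38, as annotated by GENCODE M21, and all are protein coding. Pvalb spans chr15:78191114-78206400, Runx3 chr4:135120652-135177990, Etv1 chr12:38779380-38870484, Spp1 chr5:104435118-104441050 and Cntnap2 chr6:45059357-47304213. Slc17a7 spans chr7:45163949-45176142, Calb1 chr4:15881264-15908064, Calb2 chr8:110137502-110168210, Th chr7:142892752-142931128 and Slc17a8 chr10:89574020-89621253. Pvalb, Calb2, Th and Slc17a8 are on the minus strand and the other 6 on the plus strand. Spp1 alone shares exon bases with another annotated gene.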

How the data were processed

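RNA of 6 pooled samples was measured by single-end sequencing of 75 nucleotides from stranded libraries, per the labels' protocols. The authors deposited raw counts of reads per gene symbol, made with STAR, SAMtools and HTSeq on mm10 (GRCm38), per the submitters' processing notes, with versions, annotation and strand setting not given in the sources used here. Groups follow the sample titles, whereas the deposited tables are named with 10 µg and with 4 for vehicle replicate 3.

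All 38926 symbols were fitted with edgeR 4.0.16 in R 4.3.3: 16706 passed filterByExpr (minimum count 10), scaling was by TMM, and the robust quasi-likelihood test was two-sided, with Benjamini-Hochberg adjustment over the genes tested (threshold 0.05, 4 residual degrees of freedom). CPM uses TMM-scaled libraries, log2 CPM a prior count of 2. Reads counted outside genes stayed out. The edgeR step was tested on simulated counts.

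The 10 genes and the gene lists were chosen with earlier results of these data known. All 10 were named, plus up to 2 tested genes of smallest p per list, Atf3, and the highest gene of lists of other tissues; Kcna1, CD44, Slc17a6, Fam19a4, Ntrk3, Dbh, Isl1, Avil and Acta1 were named beyond this rule after their values were seen. Same-numbered libraries were not treated as pairs. Alternatives were DESeq2 1.42.0, limma-voom (limma 3.58.1), other scaling factors, filters and dispersion settings, a replicate block, thinned counts and leaving out each library; sample quality weights and DESeq2 without vincristine replicate 1 were added after seeing the data. Promoter windows come from RefSeq, which gave 8 of the 10 genes, and positions from GENCODE M21, matched by symbol.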

Additional observations from a re-analysis of the deposited data

How the results depend on the processing

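The 10 genes stayed uncalled under each of 18 alternatives, with adjusted p-values of at least 0.150. Runx3, Etv1, Calb1 and Cntnap2 kept their direction throughout; of the 180 recomputed log2 fold changes 27 turned round, all of the other 6 genes. With 1 library left out, values ran from -0.51 to 0.10 for Pvalb, -0.60 to 0.56 for Calb2, -0.46 to 0.22 for Th, -0.54 to 0.13 for Slc17a7, -0.50 to 0.15 for Slc17a8, -0.014 to 0.32 for Spp1, 0.17 to 0.58 for Runx3, -0.43 to -0.15 for Etv1, -0.54 to -0.07 for Calb1 and -0.67 to -0.22 for Cntnap2. Under sample quality weights they were 0.15 for Pvalb, -0.39 for Calb2, 0.11 for Th and 0.053 for Slc17a8. Under DESeq2 with vincristine replicate 1 left out they were 0.046 for Pvalb, -0.60 for Calb2, 0.21 for Th, 0.12 for Slc17a7, 0.14 for Slc17a8 and -0.022 for Spp1. Calb2 was also -0.12 with limma-voom, -0.0016 with median-ratio factors, -0.015 without a filter and -0.020 with the replicate block. The cause was not tested. Of 16 other genes given with a fold change none turned round.

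Over all genes edgeR called 60, against 551 with DESeq2, 35 with limma-voom, 99 without a filter, 34 with thinned counts, 474 with quality weights and 600 with DESeq2 without vincristine replicate 1. Leaving out 1 library gave 0 to 346 calls, the highest without vincristine replicate 1. The 0 came from edgeR with any 1 vehicle library left out, where 1063 to 1462 genes had an unadjusted p under 0.05. The replicate block gave 261 calls over all genes and 0 of the 10 (edgeR adjusted p = 0.150 for Cntnap2 and 0.305 for Etv1). Deviations of same-numbered libraries from their group means correlated at 0.43, 0.25 and -0.09. Those of differently numbered libraries correlated at -0.49 to 0.49. With 3 libraries a group these values cannot decide whether the numbers mark a shared batch, which the labels do not say.

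Levels per kb depend on the transcript model: with the longest transcript Slc17a7 was at 17.7 CPM per kb in vincristine and 20.2 in vehicle ganglia, and Etv1 at 4.33 in vincristine and 5.39 in vehicle ganglia. Runx3 and Calb2 had the fewest reads over the 6 libraries, at 52 to 107 and 58 to 158 per library. Their spread differed all the same: among vehicle libraries the highest over the lowest CPM was 1.09 for Runx3 and 2.43 for Calb2.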

Other observations

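The genes whose log2 CPM followed each of the 10 most closely over the 6 libraries, among 13969 compared and given as a description with no test, had correlations of at least 0.963. All correlations rest on the same 6 libraries, which differ in depth and in marker levels and of which vincristine replicate 1 stands apart. Calb1 lay closest to Rab6b and Mink1 (Pearson r = 0.999 each), and Slc17a7 to the neuronal enolase Eno2 and to Ttbk1 (0.999 each). Cntnap2 lay closest to Esf1 and Fam199x (0.999 each). For Th, Slc17a8 itself was among the closest 2 genes, with Dcun1d3 (0.998 each), and for Slc17a8 they were Ssbp3 (0.9998) and Pef1 (0.998). Pvalb lay closest to Arcn1 (0.983) and Dok5 (0.963), Runx3 to Tubb1 (0.989) and Alpk1 (0.985), and Etv1 to Rassf5 (0.984) and Wipf3 (0.980). A correlation does not give the size of the differences: Arcn1 ran from 160 to 166 CPM over the 6 libraries, and Pvalb from 29.4 to 60.7 CPM. Calb2 lay closest to Rev3l (0.982) and the bone phosphatase Alpl (0.979), and Spp1 to Tmem126a and Gpn2 (0.991 each).

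Slc17a9, the vesicular nucleotide transporter, had 3.64, 1.98 and 2.12 CPM in vincristine ganglia and 1.23, 0.938 and 1.45 CPM in vehicle ganglia. The groups did not overlap, and the difference did not pass the test (log2 fold change 1.07 ± 0.33, edgeR adjusted p = 0.284). Among the 8 other genes of transmitter loading, 1 was without overlap, against 21.0% of all genes.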
